A study of Homo sapiens with 5 samples.

Results

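The genes described here are 10 targets of the hypoxia-inducible factors (HIF): VEGFA, ADM, SLC2A1, PGK1, PDK1, BNIP3, CA9, P4HA1, MIR210HG and EGLN3. They were taken by symbol from 5 total RNA libraries of TC28a2 cells, a human chondrocyte line that the labels trace to costal cartilage. All 10 symbols had a value in every library, among 2694 listed genes. The cells had been kept for 5 days in growth medium (GM, 2 libraries) or hypertrophic medium (HM, 3 libraries), both based on DMEM-HG. GM held 10% FBS. HM held 1% FBS, 1% insulin transferrin selenium-A, BMP-2 at 100 ng/ml, GDF-5 at 10 ng/ml, T3 at 1 μM, ascorbic acid at 50 μg/ml, dexamethasone at 10 nM and β-glycerophosphate at 10 mM, and was renewed during the culture. The cells were cultured at 37 °C and 5% CO2, and the labels give no oxygen level for either medium. All libraries come from 1 cell line, and HM differs from GM by its serum and all of its additives at once, so their effects cannot be told apart.

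HIF is a pair of proteins, an oxygen-regulated alpha subunit (HIF1A or EPAS1) and the stable partner ARNT. When oxygen is present, prolyl hydroxylases of the EGLN family mark the alpha subunit, VHL binds it, and it is degraded. These hydroxylases need iron and 2-oxoglutarate, and ascorbate helps to keep the iron reduced. When HIF accumulates it binds short sites with the core ACGTG or GCGTG, and raises genes for glucose uptake, glycolysis, lactate and acid handling, mitochondrial removal, collagen hydroxylation and blood vessel growth. Cartilage has no blood vessels, and HIF1A is known to keep growth plate chondrocytes alive at low oxygen. Most of these genes also answer to other signals.

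The core letters were looked for in the 250 bases before each annotated transcript start, as ACGTG and GCGTG on both strands. Upstream sequences came from the RefSeq table of GRCh38.p14 and were placed on GRCh37 by exact match. The table held 10 starts for 9 of the genes and none for VEGFA. At least 1 match was present at 7 of these 10 starts, against 43.2% of the 35116 starts in the table, and at least 3 matches at 2 starts (BNIP3 and PGK1), against 7.8%. BNIP3 had 6 matches, of which 2 are both strands of 1 overlapping palindrome, and 1.36% of all starts had 5 or more. EGLN3, SLC2A1 and 1 of the 2 starts of PDK1 had no match in this window. Among the listed genes the share with a match was 47.2% of the starts of genes lower in HM and 48.2% of the starts of genes higher in HM, shares close to each other. A match is a description of letters and not a bound site. The stretches that hold the matches are shown for 5 genes, on the strand of the gene from 5′ to 3′, with the matches in capitals.
BNIP3, chr10:133795497-133795600, minus strand: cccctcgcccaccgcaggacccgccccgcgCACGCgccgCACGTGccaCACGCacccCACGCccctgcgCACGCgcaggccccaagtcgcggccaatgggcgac
PGK1, chrX:77359504-77359596, plus strand: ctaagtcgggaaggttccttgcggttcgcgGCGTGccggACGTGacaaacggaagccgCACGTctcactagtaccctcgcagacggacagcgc
ADM, chr11:10326489-10326553, plus strand: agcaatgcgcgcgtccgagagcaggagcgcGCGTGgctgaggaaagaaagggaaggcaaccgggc
CA9, chr9:35673877-35673924, plus strand: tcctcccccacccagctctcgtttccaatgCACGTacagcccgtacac
MIR210HG, chr11:568458-568657, minus strand: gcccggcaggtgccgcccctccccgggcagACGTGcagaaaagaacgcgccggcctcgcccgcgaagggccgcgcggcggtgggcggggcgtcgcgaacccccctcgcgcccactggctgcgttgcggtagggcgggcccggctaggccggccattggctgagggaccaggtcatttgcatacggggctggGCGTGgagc

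MIR210HG is the host transcript of miR-210, a microRNA of low-oxygen responses. The hairpin lies at chr11:568089-568198 of GRCh37 on the minus strand, inside the MIR210HG gene and outside its annotated exons. The mature miR-210-3p is shown from RefSeq because it is the product for which the host is best known, with its seed (bases 2 to 8) in capitals. Values for the microRNA itself were not analysed here.
hsa-miR-210-3p: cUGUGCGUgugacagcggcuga

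Each deposited value is a log2-transformed, normalized read count of 1 gene in 1 library, and a difference is the HM mean minus the GM mean on that scale. The kind of log2 transformation is not named, and some kinds shrink differences, so a ratio to the GM level given below is the difference taken out of the log on the deposited scale and may understate the fold in reads. The listed genes leave an empty band around a difference of 0, in that none differed by less than 0.21 in size, and they appear to be the genes called on these same libraries. A listed gene therefore had to differ, and the calls below show its size against the replicate spread and not that HIF targets changed more often than other genes. Of all listed genes, 984 were lower and 1683 higher in HM with an adjusted p under 0.05 (limma), which became 987 and 845 with each library centred on its median and 964 and 1257 with quantile normalization. Median centring shifts every difference down by 0.35, and the centred difference is given beside each of the 10 targets. The medians were taken over the listed genes alone, of which more were higher than lower in HM. The shift may therefore come from the makeup of the list and not from library scale, and it weakens increases and enlarges decreases. Quantile normalization also used the listed genes alone. With a difference over 1 in size also required, 190 genes were lower and 318 higher.

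In HM, 9 of the 10 genes were lower and EGLN3 was higher. The 10 were chosen with earlier results of these data known, so these counts do not describe HIF targets as a whole. All 9 decreases had an adjusted p under 0.05 (limma), where the share of all listed genes called lower was 36.5%, and so did the increase of EGLN3, where the share called higher was 62.5%. Every HM library lay below both GM libraries for the 9 lower genes, as for 36.5% of listed genes, and above both for EGLN3, as for 62.5%. Decreases over 1 were found for 4 genes, ADM, CA9, BNIP3 and SLC2A1, against 7.05% of listed genes. After median centring 8 of the 10 had a decrease over 1, as had 565 listed genes in place of 190. An increase over 1 was found for 0 of the 10, at an adjusted or an unadjusted p under 0.05 (limma), against 11.8%. The median difference of the 9 lower genes was -0.96, and that of all 987 genes with a lower mean in HM was -0.69. With 5 libraries an exact two-sided permutation test has 10 arrangements and cannot give less than 0.1. It gave 0.1 for 8 of the genes and 0.2 for MIR210HG and EGLN3. These are bulk libraries, in which fewer cells of a kind and less RNA per cell cannot be told apart.

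**Figure D1:**
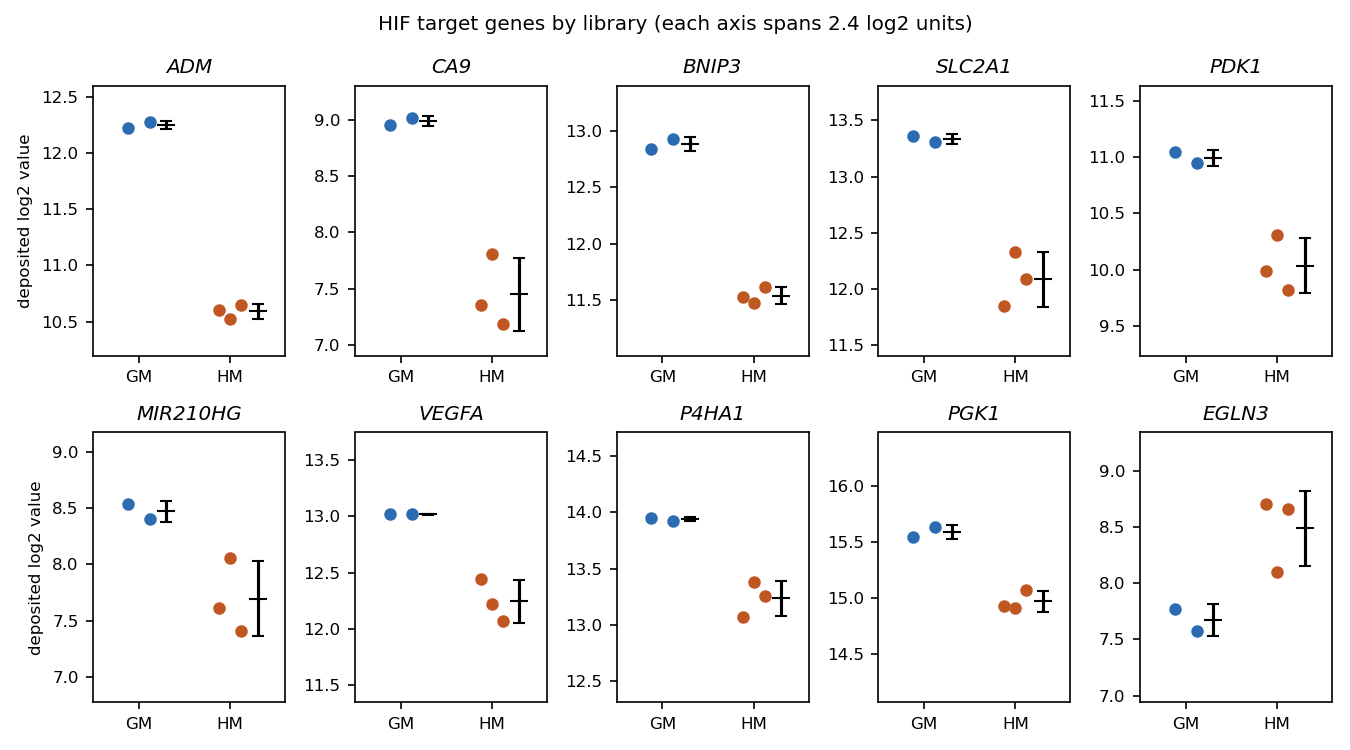
Deposited log2 value of each HIF target gene in the 2 GM (blue) and 3 HM (orange) libraries, with the mean and SD of each medium as a black bar beside the points. The HM points lie below both GM points in 9 panels and above them in the EGLN3 panel, and the HM points of ADM, BNIP3 and PGK1 are closer together than those of CA9, MIR210HG and EGLN3.

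Of the secreted ligands, ADM encodes adrenomedullin, a peptide that widens vessels and acts on CALCRL with a RAMP partner. It lies at chr11:10326620-10328944 of GRCh37. ADM was 12.22 and 12.27 in GM and 10.60, 10.52 and 10.65 in HM. The HM values were the most tightly grouped of the 10 genes, and 1.57 separated them from the GM values. The difference was -1.65 (standard error 0.11, 95% interval -1.91 to -1.40, adjusted p = 1.16e-05, limma), which is 0.318 times the GM level on the deposited scale, and it was -2.002 after median centring. By size it ranked 58 among the 987 genes with a lower mean in HM.

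VEGFA, the main growth factor of blood vessels and a signal by which hypertrophic cartilage draws vessels in, lies at chr6:43737921-43754224. It was 13.02 in both GM libraries and 12.45, 12.22 and 12.07 in HM. The GM libraries were thus alike to the second decimal, and HM replicate 1 was closest to them. VEGFA fell by 0.78 (standard error 0.13, adjusted p = 0.000839, limma), or 0.584 times the GM level on the deposited scale, and its centred difference was -1.12.

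Among the genes of glucose use, SLC2A1 encodes GLUT1, the glucose transporter of most cultured cells (chr1:43391024-43424564). SLC2A1 was 13.37 and 13.31 in GM against 11.85, 12.33 and 12.09 in HM. All 3 HM libraries were lower by close to 1 or more, with replicate 2 the least so. The difference was -1.25 (standard error 0.15, adjusted p = 0.000169, limma), or 0.421 times the GM level on the deposited scale, and -1.59 after centring.

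PGK1 encodes phosphoglycerate kinase, the first ATP-forming enzyme of glycolysis. Its values were 15.55 and 15.63 in GM and 14.93, 14.91 and 15.08 in HM, so the groups were narrow and 0.47 apart. As deposited, its difference of -0.62 (standard error 0.12, adjusted p = 0.00121, limma) was the smallest of the 10 genes and ranked 628 among the 987. This difference was -0.97 after centring, where that of EGLN3 was smaller in size (0.47), and -0.46 after quantile normalization. The GENCODE gene on chromosome X, from 77166236 to 77384792, shares exons on the same strand with ATP7A, a copper transporter gene that was listed with a difference of 0.72 in the other direction, so the split of reads between the genes is uncertain.

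PDK1 encodes pyruvate dehydrogenase kinase 1, which holds pyruvate back from the mitochondria (chr2:173420101-173473397). PDK1 was 11.04 and 10.95 in GM and 9.98, 10.30 and 9.82 in HM. HM replicate 2 was again the closest to GM. PDK1 fell by 0.96 (standard error 0.16, adjusted p = 0.000704, limma), to 0.514 times the GM level, and its centred difference was -1.31.

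BNIP3, a mitochondrial membrane protein that marks mitochondria for autophagy, lies at chr10:133781188-133795471. BNIP3 was 12.84 and 12.93 in GM and 11.53, 11.47 and 11.62 in HM. The 3 HM libraries lay within 0.14 of each other, and the media were 1.22 apart. The difference was -1.34 (standard error 0.11, adjusted p = 3.18e-05, limma), or 0.394 times the GM level, and -1.69 after centring. GENCODE names 44 BNIP3 pseudogenes, of which BNIP3P1 was listed and was lower by 0.58 (adjusted p = 0.00506, limma), and reads of such copies could have been counted for either.

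CA9 encodes carbonic anhydrase IX, a cell surface enzyme that helps to export acid and is among the most oxygen-dependent HIF targets (chr9:35673925-35681156). CA9 was 8.96 and 9.02 in GM and 7.36, 7.81 and 7.19 in HM. The HM libraries spanned 0.63, the second widest range of the 10 genes after MIR210HG, yet the media were 1.15 apart. CA9 fell by 1.54 (standard error 0.20, adjusted p = 0.000231, limma), to 0.345 times the GM level, and its centred difference was -1.88.

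P4HA1 encodes the catalytic subunit of collagen prolyl 4-hydroxylase, which stabilizes the collagen helix and uses ascorbate (chr10:74766975-74856732). P4HA1 was 13.95 and 13.93 in GM and 13.07, 13.38 and 13.26 in HM. It was lower in all 3 HM libraries. The difference was -0.70 (standard error 0.12, adjusted p = 0.000947, limma), or 0.615 times the GM level, and -1.05 after centring.

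MIR210HG, the long noncoding host of the miR-210 sequence given above (chr11:565657-568457), was 8.54 and 8.41 in GM and 7.61, 8.06 and 7.41 in HM. The nearest libraries of the 2 media, GM replicate 2 and HM replicate 2, were 0.35 apart, the narrowest gap of the 9 lower genes. It fell by 0.78 (standard error 0.20, 95% interval -1.24 to -0.32, adjusted p = 0.00544, limma) and its centred difference was -1.13.

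EGLN3 (chr14:34393433-34931980), one of the prolyl hydroxylases that mark HIF and itself a HIF target, went the other way. EGLN3 was 7.77 and 7.57 in GM and 8.70, 8.10 and 8.66 in HM. HM replicate 2 stood 0.33 above the higher GM library, and the other HM libraries stood further above. The difference was 0.81 (standard error 0.20, 95% interval 0.35 to 1.28, adjusted p = 0.00461, limma), or 1.76 times the GM level. Its call depended on the scaling: the centred difference was 0.47 with an adjusted p of 0.0622 and an unadjusted p of 0.0438, and the quantile-normalized difference was 0.51 with an adjusted p of 0.0416 (limma). Without HM replicate 2 the difference was 1.01.

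**Figure D2:**
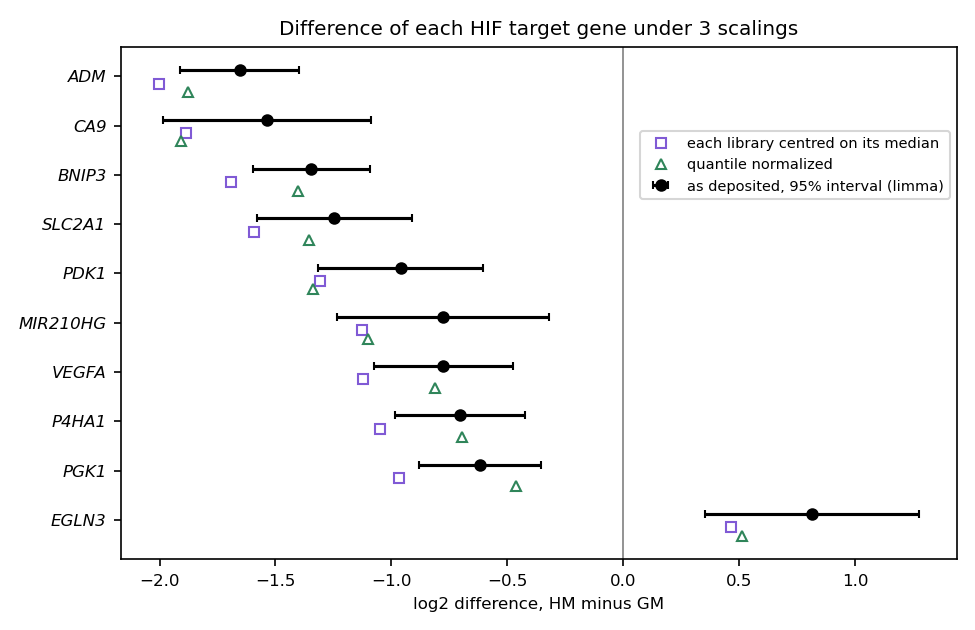
Log2 difference (HM minus GM) of each HIF target gene as deposited, with its 95% interval (limma), and the same difference with each library centred on its median or quantile normalized. The 9 decreases stay below 0 under all 3 scalings, while the difference of EGLN3 drops from 0.81 to 0.47 and 0.51.

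In order of size the decreases ran from ADM over CA9, BNIP3, SLC2A1, PDK1, MIR210HG, VEGFA and P4HA1 to PGK1. Neighbours in this order had overlapping 95% intervals and were not tested against each other. At the ends, the interval of ADM (-1.91 to -1.40) lay apart from that of PGK1 (-0.88 to -0.36). Expression levels are not compared between genes, since the values are not scaled by transcript length.

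The order of the HM libraries differed between groups of the genes. CA9, PDK1 and MIR210HG were highest in HM replicate 2 and lowest in replicate 3, with deviations from their HM means of 0.36, 0.27 and 0.37 in replicate 2. SLC2A1 and P4HA1 were also highest in replicate 2 but lowest in replicate 1. ADM, BNIP3 and PGK1 were highest in replicate 3 and lowest in replicate 2, within a range of 0.13 to 0.16. In these groups 8 of the 10 genes shared their order with another. VEGFA and EGLN3 were highest in replicate 1, and EGLN3 was lowest in replicate 2, where 5 of the 9 lower genes were highest. Over all listed genes replicate 2 was the highest HM library for 35.7% and the lowest for 25.9%, replicate 1 the highest for 43.2% and the lowest for 24.8%, and replicate 3 the highest for 21.1% and the lowest for 49.3%. With 3 libraries this is a description of these values and was not tested.

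**Figure D3:**
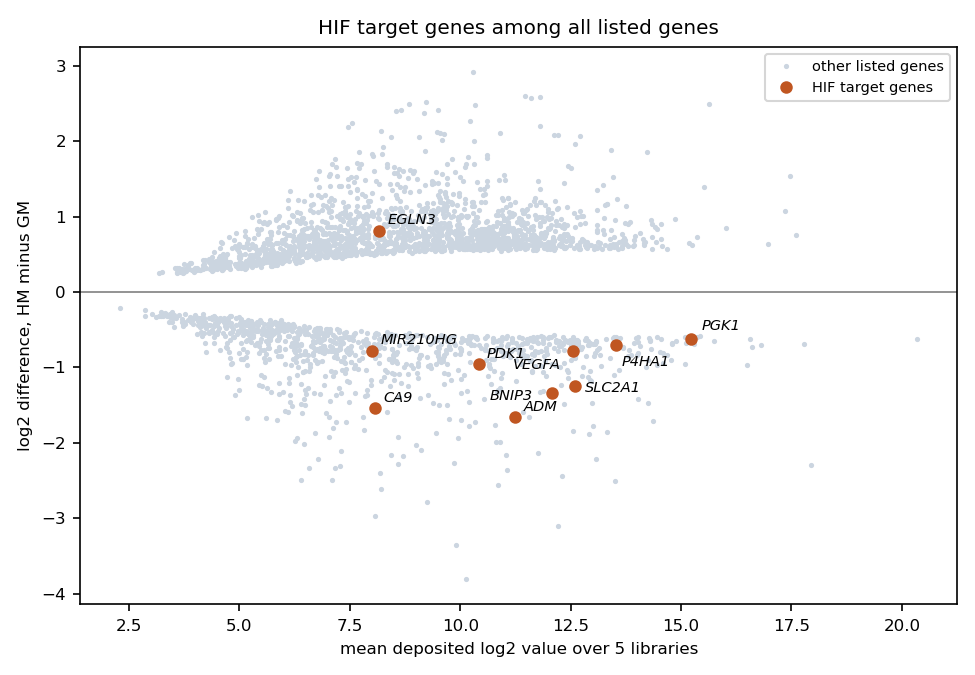
Log2 difference (HM minus GM) against the mean deposited log2 value over the 5 libraries for all 2694 listed genes (grey), with the 10 HIF target genes in orange. ADM, CA9, BNIP3 and SLC2A1 lie below -1, and PGK1, with -0.62, is the closest to 0 of the 10.

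A listed relative of PDK1, of SLC2A1 and of CA9 was higher in HM as deposited. PDK2, a sister kinase of PDK1, was 10.10 and 10.11 in GM and 10.82, 10.65 and 10.72 in HM, a difference of 0.62 (adjusted p = 0.00135, limma). Within a library, PDK1 minus PDK2 was 0.94 and 0.84 in GM and -0.83, -0.35 and -0.90 in HM, a change of -1.58, of which the sign of a single value says nothing since transcript length enters it. SLC2A10, a facilitative transporter of the SLC2A family, rose by 1.00 (adjusted p = 0.000126, limma), and SLC2A1 minus SLC2A10 went from 2.15 and 2.16 in GM to -0.37, 0.11 and -0.01 in HM, a change of -2.25. CA11, a carbonic anhydrase relative without catalytic activity, rose by 0.70 (adjusted p = 0.00248, limma), and CA9 minus CA11 went from 0.52 and 0.56 to -1.93, -1.12 and -2.05, a change of -2.24. These 3 pairs were chosen after their values were seen, each joining a gene already lower with one already higher in every HM library, so the changes are given as a description with no test. The increases of PDK2 and CA11 had adjusted p of 0.0531 and 0.059 after centring and 0.0999 and 0.0796 after quantile normalization, while SLC2A10 kept an adjusted p of 0.000511 (limma).

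**Figure D4:**
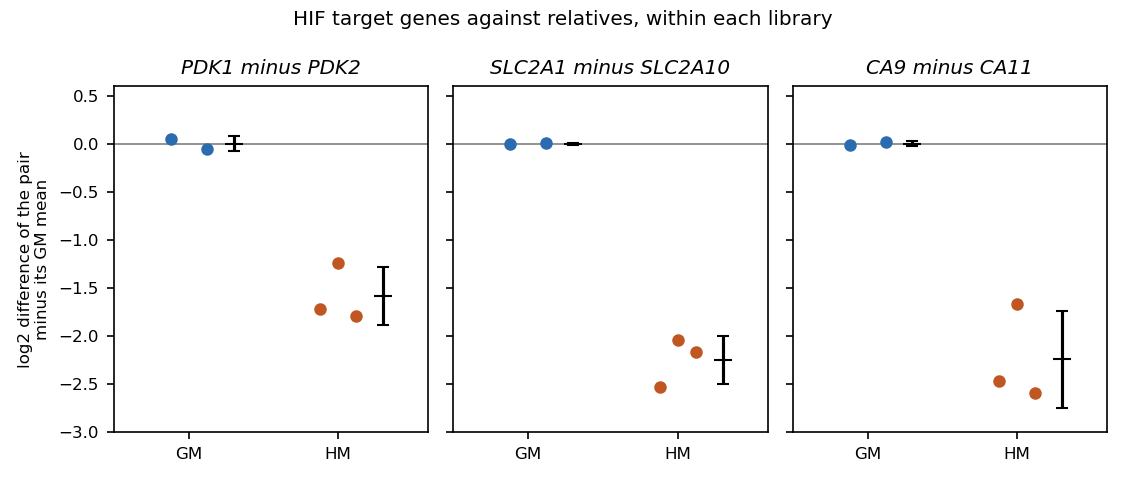
Difference of the deposited log2 values of 2 genes within each library, for PDK1 minus PDK2, SLC2A1 minus SLC2A10 and CA9 minus CA11, each shown relative to its mean in GM (grey line at 0), with points for libraries and black bars for the mean and SD of each medium. All 3 differences are lower in every HM library than in both GM libraries, with mean changes of -1.58, -2.25 and -2.24.

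Of 26 further genes for HIF subunits and their regulators, 6 were listed, and HIF1A, ARNT, VHL, EGLN1, EGLN2 and HIF1AN were not analysed here. EPAS1, which encodes HIF-2 alpha, was 11.54 and 11.53 in GM and 12.55, 12.04 and 11.91 in HM and rose by 0.63 (adjusted p = 0.00801, limma). Its adjusted p was 0.107 after centring and 0.0803 after quantile normalization. CREBBP and EP300, the acetyltransferases that HIF recruits, rose by 0.84 each (adjusted p = 0.000803 and 0.00108, limma), and the repressor BHLHE40, a HIF target, by 0.71 (adjusted p = 0.001, limma). These 3 kept an adjusted p under 0.05 after centring. The antisense transcripts of the HIF1A locus parted. HIF1A-AS2, which overlaps the end of HIF1A and is itself raised by low oxygen, was 6.41 and 5.94 in GM and 4.55, 4.57 and 4.38 in HM, a difference of -1.68 (standard error 0.15, adjusted p = 4.99e-05, limma). HIF1A-AS1, at the start of HIF1A, rose by 0.55 (adjusted p = 0.00749, limma), with an adjusted p of 0.228 after centring. Both antisense transcripts had low values, with means under 6.35, the lower quartile of the listed genes. The library kit keeps strand, but the sources used here do not say whether reads were counted by strand, so antisense values are uncertain. This also touches 5 of the 10 targets that share exonic positions with a gene on the other strand, such as CA9 with ARHGEF39 and PDK1 with PDK1-AS1.

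Of 60 other known HIF targets, 7 were listed, with 5 called lower and 2 higher at an adjusted p under 0.05 (limma), where the shares of all listed genes were 36.5% and 62.5%. The vasoconstrictor gene EDN1 was lower by 2.79, with 10.92 and 10.90 in GM and 8.09, 8.28 and 8.005 in HM. STC2, a secreted glycoprotein of mineral balance and stress, had a difference of -2.21. Both exceeded ADM in the size of the difference. NT5E, VLDLR and AK4, which encode an ecto-5′-nucleotidase, a lipoprotein receptor and a mitochondrial adenylate kinase, fell by 0.82, 0.76 and 0.63. The chemokine gene CXCL12 rose by 1.69 and the collagen cross-linking enzyme gene LOX by 0.59. After centring, LOX had an adjusted p of 0.122, and after quantile normalization a difference of 0.17 with an adjusted p of 0.273 (limma). Without GM replicate 1 its difference was 0.47. The other 6 kept their calls after centring. The remaining 53 targets were not analysed here, so these 7 do not describe the whole list.

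Of 43 further genes of glycolysis, glucose transport and pyruvate control, 9 were listed, 4 called lower and 5 called higher, where 36.5% and 62.5% of all listed genes were so called. HK2, the hexokinase that traps glucose, was 11.11 and 11.03 in GM and 9.75, 9.58 and 9.48 in HM, a difference of -1.46 (standard error 0.13, adjusted p = 4.6e-05, limma). PFKP (phosphofructokinase) fell by 0.83, PGAM1 (phosphoglycerate mutase) by 0.69 and PDP1, which reactivates pyruvate dehydrogenase, by 0.63, all with an adjusted p under 0.05 (limma). The higher ones included SLC2A10, PDK2, the transporter SLC2A12 with 0.66 and the monocarboxylate transporter family gene SLC16A4 with 0.53. The call of SLC16A4 rested on single libraries, with 0.31 and an adjusted p of 0.25 without GM replicate 2 and an adjusted p of 0.0632 without HM replicate 2 (limma). After centring, which lowers every difference by 0.35, SLC2A10 was the 1 of the 5 higher genes with an adjusted p under 0.05 (limma). After quantile normalization SLC2A10 and PDK4, a further sister kinase named here after its values were seen, had an adjusted p of 0.000533 and 0.011 (limma).

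For vessel ligands and receptors, 5 of 20 further genes were listed. The endothelial receptor genes TIE1 and FLT4 fell by 1.51 and 0.94, TEK rose by 1.39 and RAMP2, a partner of the adrenomedullin receptor, rose by 0.63 (adjusted p = 0.000149, 0.00113, 0.000626 and 0.0034, limma). ADM2, a relative of ADM, was 7.59 and 7.64 in GM and 8.88, 7.94 and 7.84 in HM and did not pass (adjusted p = 0.0614, limma), with HM replicate 1 well above the other HM libraries and a difference of 0.27 without it. RAMP2 lost its call after centring, with an adjusted p of 0.112. Of 16 further genes of carbonic anhydrases and pH control, CA11 and SLC4A4, a bicarbonate transporter gene, were listed and rose by 0.70 and 0.73. Neither had an adjusted p under 0.05 after centring (limma), with CA11 at an unadjusted p under 0.05. SLC4A4 also had an adjusted p of 0.0626 without GM replicate 1 (limma). Beside P4HA1 and LOX, COLGALT2 was the only listed gene of 12 others for the modification, folding and cross-linking of collagen. It rose by 0.68 (adjusted p = 0.123 after centring, limma). Beside BNIP3, the kinase gene PINK1 of mitochondrial quality control was the only listed gene of 15 others for mitophagy and autophagy. It fell by 0.61 (adjusted p = 0.00117, limma). CYBRD1, a ferric reductase, and the transferrin receptor relative TFR2 were listed of 12 genes for iron and ascorbate handling and rose by 0.92 and 0.70.

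**Figure D5:**
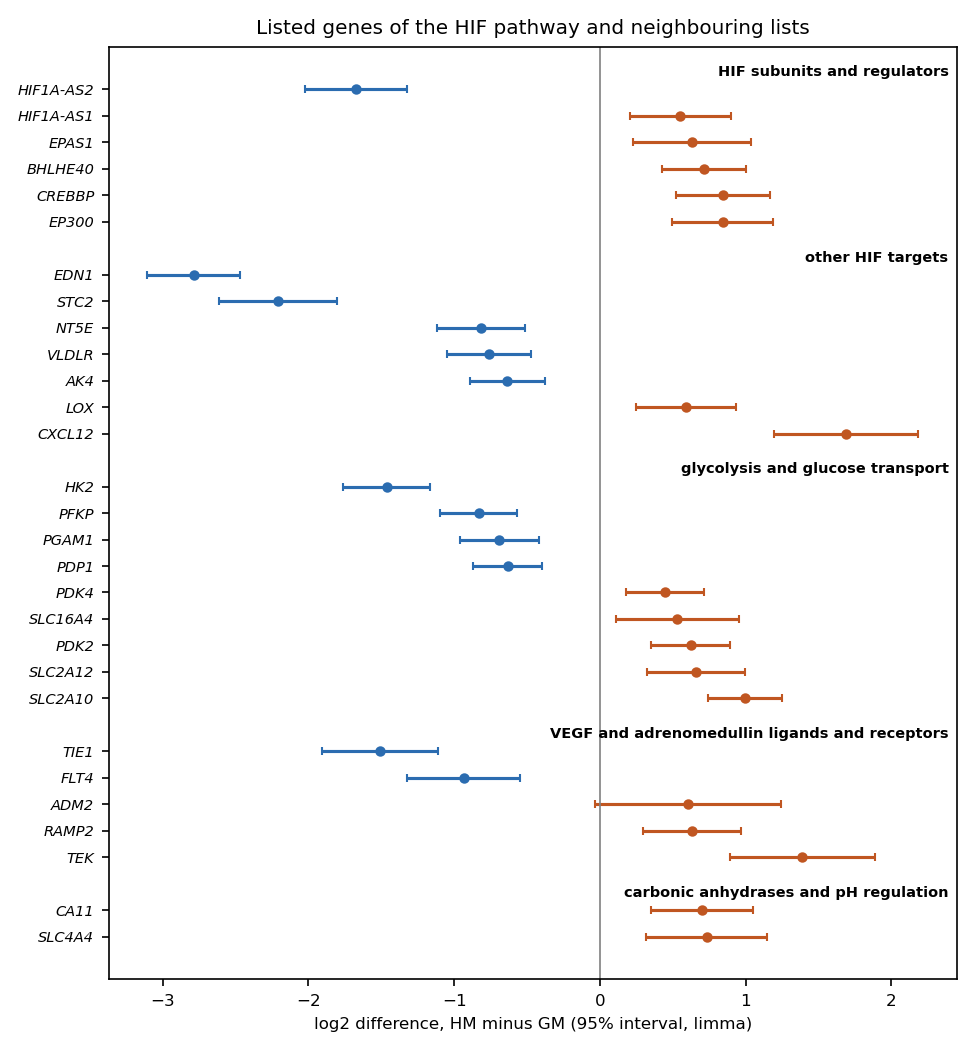
Log2 difference (HM minus GM) with its 95% interval (limma) for the listed genes of 5 lists around the HIF pathway, blue where lower and orange where higher in HM. HIF1A-AS2, EDN1, STC2, HK2 and TIE1 lie below -1, CXCL12 and TEK lie above 1, and the interval of ADM2 reaches across 0.

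The genes most like each target were sought by the smallest Euclidean distance between profiles over the 5 libraries, each gene taken about its own mean, among the other 2693 genes. ADM was nearest to HBEGF, a growth factor gene, at 0.126. VEGFA was nearest to TIMP3, an inhibitor of metalloproteinases, at 0.0607. BNIP3 was nearest to DIO2, the deiodinase that activates thyroid hormone, at 0.0787, and PDK1 to ABLIM3 at 0.0531, with CCN1 second at 0.0996. PGK1 was nearest to PTGES3L at 0.0249, P4HA1 to CRACR2A at 0.0761 and MIR210HG to RPEP4 at 0.096. The least well matched were CA9, with INHBB at 0.255, EGLN3, with TMTC1 at 0.195, and SLC2A1, with LOC101928446 at 0.147 and CDH5 at 0.162. No HIF target had another of the 10 among its 2 nearest genes. With only 2 of 2693 genes taken for each, this says little about likeness among the 10.

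Markers of several cell types were among the listed genes. Of 17 chondrocyte markers 5 were listed (SOX9, COL2A1, ACAN, COL9A2 and COL9A3), all higher in HM, by 0.65 to 1.53. Of 10 markers of hypertrophic chondrocytes and osteoblasts, MMP13 and PTH1R were listed and higher by 0.70 and 1.06, and 4 of 8 fibroblast markers (COL1A1, COL3A1, LUM and PDGFRA) were higher by 0.64 to 1.30. The endothelial markers CDH5 and CLDN5, of 6, differed by -1.19 and 0.49, and of 7 blood cell markers CD14 was listed, with 1.24. All of these had an adjusted p under 0.05 as deposited (limma), as had 62.5% of listed genes in the higher and 36.5% in the lower direction. After centring, SOX9, MMP13, COL1A1 and CLDN5 had an adjusted p of 0.0525, 0.116, 0.289 and 0.399, and SOX9 had 0.059 after quantile normalization (limma). Without GM replicate 2, COL1A1 and CLDN5 had an adjusted p of 0.0946 and 0.0702, and CLDN5 had 0.0626 without HM replicate 2 (limma). The remaining markers were not analysed here. Their part in the differences of the HIF targets was not tested.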

How the data were processed

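Total RNA of TC28a2 cells was sequenced from 2 GM and 3 HM libraries, grouped by their sample titles. According to the methods, the authors trimmed the reads, aligned them to hg19 with HISAT2, counted NCBI genes with StringTie, filtered out genes by zero read counts, and log2-transformed and RLE-normalized the counts, where the median ratio of a library to the gene-wise average of all libraries sets its scale. The deposited log2 values, 1 per gene and library, run from 2.20 to 20.86, and the transformation is not named further. The submitters' processing notes instead name bcl2fastq 2.20.0.422, cutadapt 1.18, TopHat2 2.0.13, Cuffdiff 2.2.1 and the rat build rn5. The symbols are human, and hg19 was used.

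The media were compared by limma 3.58.1 in R 4.3.3 (lmFit, eBayes with a mean-variance trend) over all 2694 genes with Benjamini-Hochberg adjustment, and called means an adjusted p under 0.05. The fit was tested on simulated data. Depth is unknown from these values, so no counting error was derived, and precision rests on 2 and 3 libraries. The study states biological replicates for its experiments in general, but the sources do not say which libraries came from separate cultures, so p-values measure the spread between these libraries, which may be technical. The gene lists and members were chosen with earlier results of these data known. Genes named were the 10 targets, the listed genes of 14 lists (all where a list had 8 or fewer, otherwise the 4 largest in each direction), and the nearest profiles. Some genes whose exons overlap those of a target, and the listed pseudogene of BNIP3, were named as well. Some genes of the lists are not reported here and were left out of the list counts. Gene positions are from GENCODE 44 on GRCh37, the same build as hg19. Alternatives were a replicate block, median centring, quantile normalization, no variance trend, omission of genes with a mean value at or under the lower quartile of 6.35, and omission of each library. The omission by mean value took out HIF1A-AS1, HIF1A-AS2, TIE1, TFR2, PDK4 and CLDN5 among the genes of the lists. The count models that were planned only for read counts were not run.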

Additional observations from a re-analysis of the deposited data

How the results depend on the processing

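The 9 decreases kept their direction and an adjusted p under 0.05 (limma) in all 10 alternatives, and the increase of EGLN3 in 9 of them. Median centring left 0 of the 10 targets higher by an adjusted p under 0.05, with EGLN3 at an unadjusted p of 0.0438, and took the decreases over 1 from 4 to 8. Over all listed genes it gave 845 higher in place of 1683, 120 higher by over 1 in place of 318 and 565 lower by over 1 in place of 190. Quantile normalization gave 150 higher and 398 lower by over 1. Without the genes of lowest mean value (at or under 6.35), fewer genes were tested, and 653 were lower in place of 984 and 1350 higher in place of 1683. With each library left out, 0 to 1 targets were higher by over 1, the 1 being EGLN3 with 1.01 without HM replicate 2. Where 1 GM library was left, it was assumed to vary like the HM libraries. With the replicate number as a block, 9 targets were lower and 1 higher as before, and 418 genes were higher and 202 lower by over 1. HM replicate 3 has no GM partner and drops out of this fit, and leaving it out without the block gave 416 and 202. Replicate numbers 1 and 2 are shared by the media, but the differences between these replicates had a correlation across genes of -0.0253 between GM and HM, so the numbers were not taken to pair the libraries. Of 464 values for 47 other genes of the lists, 433 stayed on the same side of the threshold, 29 lost their call, 2 gained one and 0 reversed. ADM2 was called in these 2 fits, with 0.79 and an adjusted p of 0.0354 without HM replicate 3 and no block. The unknown depth and the selected gene list limit all of these values.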
